A study of Arabidopsis thaliana with 2 samples.

Results

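A set of 10 genes that serve as markers of cold, drought and abscisic acid responses was followed in shoots of Arabidopsis thaliana seedlings: RD29A, RD29B, KIN1, KIN2, COR15A, COR15B, COR47, ERD10, RAB18 and the late embryogenesis abundant (LEA) family gene AT1G52690. They were chosen by identifier, all 10 of 10 have an entry among the 18615 annotated genes of the deposited table, and the choice was made with the ratios of these libraries known, so what follows describes them and tests nothing. The genotypes were the bts-1 mutant of BRUTUS (BTS), the gene of an E3 ubiquitin ligase that holds back iron-deficiency responses, and the wild-type accession Col-0. Plants of both genotypes were grown on 1/2 Murashige and Skoog medium lacking sucrose and shoot RNA was sequenced from 1 library each. Plant age, the lesion in bts-1 and the number of plants per library are not given in the sources used here, which name no cold or drought treatment.

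These genes sit at the end of a pair of signalling routes. Abscisic acid binds PYR/PYL receptors, which then hold back clade A PP2C phosphatases, and the SnRK2 kinases freed in this way activate bZIP transcription factors of the ABF group that bind the abscisic acid-responsive element (ABRE). Cold acts largely through the CBF factors, which bind the dehydration-responsive element (DRE), and drought acts through both elements. The products of the marker genes are mostly hydrophilic proteins, among them dehydrins and other LEA proteins, that protect membranes and proteins in cells that lose water.

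No source states the scale of the deposited values; from their range and sums they were read as log2(FPKM + 1), and every FPKM below is back-calculated on that reading. Here FPKM is the number of fragments scaled by transcript length and library size, and the log2 ratio is bts-1 minus Col-0. With 1 library per genotype no replicate error, p-value or counting interval can be given, every difference compares these libraries only, and fewer cells of a type cannot be told apart from less RNA per cell. BTS itself (AT3G18290) was listed at 9.57 in bts-1 and 10.84 in Col-0, a log2 ratio of -1.27. A gene was counted as lower or higher at a log2 ratio of at least 1 in size (2-fold), and the genes tested were the 18510 whose FPKM reached 1 in one library or both. The markers of shoot tissue, RBCS1A, LHCB2.1, CA1 and RCA, were all present at high level in both libraries, with log2 ratios between -0.32 and 0.26. On chromosome 3 the log2 level declined with the log2 exon length of the following gene, with a slope of -0.55 (SE 0.04). The slopes of the other nuclear chromosomes lay between -0.02 and 0.04. The level of any gene whose identifier begins with AT3G, BTS included, is therefore uncertain. No marker gene lies on that chromosome: 3 are on chromosome 1, 2 on chromosome 2 and 5 on chromosome 5.

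Of the 10 marker genes, 5 were at least 2-fold lower in bts-1 and 0 were at least 2-fold higher, while 3.63% of all genes tested were lower and 1.92% higher. The log2 ratio was negative in 9 of 10 marker genes and in 45.1% of all genes tested. The median of the marker genes was -0.93 against 0.04 for all genes tested. Because the genes were chosen with these ratios in view, the count is set beside the background and nothing is read from it. At 3-fold, 2 of 10 were lower, RD29B and AT1G52690, against 1.15% of all genes tested. The genes at least 2-fold lower were AT1G52690, RD29B, KIN2, COR15A and RAB18. Summed over the 10 genes, FPKM was 282 in bts-1 and 447 in Col-0, of which COR47 alone gave 178 and 208. The share of all genes called lower depends on level: it was 7.07% at a mean log2 level of 0 to 2, 3.6% at 2 to 4, 2.44% at 4 to 6 and 1.91% at 6 to 8. Of the marker genes, 0 of 2, 3 of 4, 2 of 2 and 0 of 2 were lower in these ranges.

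**Figure D1:**
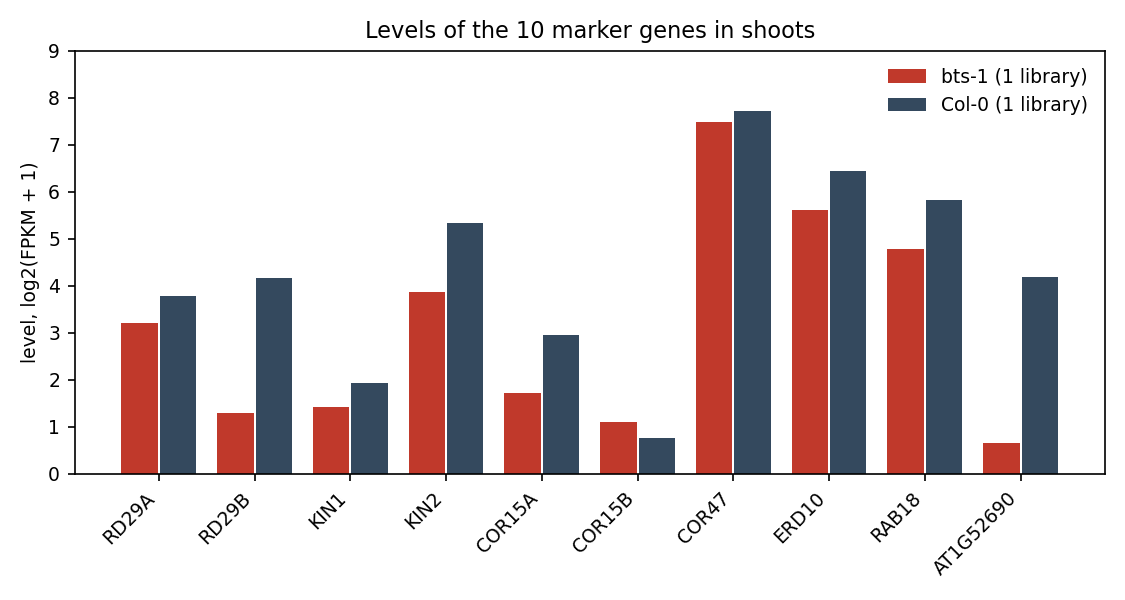
Level of each marker gene, as log2(FPKM + 1), in the bts-1 library (red, left bar) and the Col-0 library (dark, right bar); each bar is 1 library, so there are no error bars. The bts-1 bar is the shorter in 9 of the 10 genes, by the widest margin in AT1G52690 (0.65 against 4.19), and COR15B is the exception.

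The desiccation-responsive genes RD29A and RD29B are neighbours on chromosome 5 and are widely used as reporters, RD29A for cold, drought and abscisic acid together and RD29B mainly for abscisic acid. RD29B (AT5G52300) stood at 1.31 in bts-1 and 4.16 in Col-0. Its log2 ratio of -2.86 ranked 22 from the lowest of 18510 genes, and its FPKM was 1.47 in bts-1 and 16.9 in Col-0. RD29A (AT5G52310) stood at 3.22 in bts-1 and 3.79 in Col-0, a log2 ratio of -0.57 that did not reach 2-fold. The order of the neighbours was therefore opposite in the libraries: the FPKM of RD29A was 5.63 times that of RD29B in bts-1 and 0.757 times that of RD29B in Col-0. Their transcripts are 76.9% identical over 2046 aligned bases, and the longest identical run is 41 bases.

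The DNA before these neighbours is shown with that of KIN2, COR15A, RAB18 and AT1G52690, so that all 5 genes at least 2-fold lower and RD29A can be read side by side. Each sequence is the 300 bases before the annotated gene start in RefSeq's TAIR10.1, found by gene identifier and read 5′ to 3′ on the strand of the gene. Capitals mark exact matches to the core of the ABRE (ACGTG, or CACGT on the other strand) and to the core of the DRE (CCGAC, or GTCGG on the other strand). Overlapping matches of the same core were counted as 1 site.
RD29A, chr5:21240417-21240716, plus strand: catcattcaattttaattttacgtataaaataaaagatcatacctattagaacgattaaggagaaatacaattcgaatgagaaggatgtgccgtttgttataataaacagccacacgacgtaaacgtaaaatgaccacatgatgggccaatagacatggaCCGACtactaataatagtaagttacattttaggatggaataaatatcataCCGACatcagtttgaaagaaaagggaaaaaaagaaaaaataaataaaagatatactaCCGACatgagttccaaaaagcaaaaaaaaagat
RD29B, chr5:21236721-21237020, plus strand: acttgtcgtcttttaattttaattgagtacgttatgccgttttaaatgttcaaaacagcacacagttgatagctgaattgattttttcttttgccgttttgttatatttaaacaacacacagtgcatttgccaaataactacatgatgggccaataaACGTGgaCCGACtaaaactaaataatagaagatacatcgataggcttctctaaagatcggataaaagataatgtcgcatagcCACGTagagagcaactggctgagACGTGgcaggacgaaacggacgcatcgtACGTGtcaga
KIN2, chr5:5211419-5211718, plus strand: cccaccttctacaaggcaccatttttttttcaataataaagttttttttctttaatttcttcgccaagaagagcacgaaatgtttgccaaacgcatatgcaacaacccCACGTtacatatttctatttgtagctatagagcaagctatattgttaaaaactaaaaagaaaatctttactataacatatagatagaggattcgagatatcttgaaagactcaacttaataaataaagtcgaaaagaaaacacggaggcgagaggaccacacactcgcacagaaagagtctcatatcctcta
COR15A, chr2:17712331-17712630, minus strand: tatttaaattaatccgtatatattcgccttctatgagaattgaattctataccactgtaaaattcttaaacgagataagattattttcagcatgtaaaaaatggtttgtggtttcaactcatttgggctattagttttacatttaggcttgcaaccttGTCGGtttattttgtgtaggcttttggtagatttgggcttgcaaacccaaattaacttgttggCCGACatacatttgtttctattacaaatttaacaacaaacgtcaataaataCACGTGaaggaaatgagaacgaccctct
RAB18, chr5:26519448-26519747, minus strand: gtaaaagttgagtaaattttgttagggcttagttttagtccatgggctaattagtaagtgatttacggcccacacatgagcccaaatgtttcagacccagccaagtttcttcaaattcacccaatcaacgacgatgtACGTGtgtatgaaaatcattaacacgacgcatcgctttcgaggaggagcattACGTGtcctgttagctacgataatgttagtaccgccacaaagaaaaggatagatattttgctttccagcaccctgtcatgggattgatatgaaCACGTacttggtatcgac
AT1G52690, chr1:19619424-19619723, plus strand: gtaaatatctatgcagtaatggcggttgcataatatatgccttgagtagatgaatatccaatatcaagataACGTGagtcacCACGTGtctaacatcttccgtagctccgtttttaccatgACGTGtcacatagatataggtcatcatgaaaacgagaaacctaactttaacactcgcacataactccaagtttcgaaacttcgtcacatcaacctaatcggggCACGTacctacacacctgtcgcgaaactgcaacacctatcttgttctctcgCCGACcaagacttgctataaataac

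In these windows RD29A holds 3 DRE cores and 0 ABRE cores, RD29B 1 DRE core and 4 ABRE cores, RAB18 0 and 3, and AT1G52690 1 and 4. In RD29B an ABRE core and the DRE core stand side by side with 2 bases between them. Among 17832 genes tested with such a window, 26.1% hold at least 1 ABRE core and 1.5% hold at least 3, and 15.1% hold at least 1 DRE core and 0.308% at least 3. Of the 10 marker genes, 6 hold at least 1 ABRE core, 3 at least 3, and 5 at least 1 DRE core. KIN1 and KIN2 hold 1 ABRE core each, COR15A 1 ABRE and 2 DRE cores, COR15B 1 DRE core, and COR47 and ERD10 have a match to neither. A match describes the letters in a window and no match says nothing about any factor.

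Annotated gene starts lie between 118 bases (AT1G52690) and 1209 bases (COR47) before the first coding base, so the window was also set at 500 bases before the first coding base, after the data were seen. Part of this window lies after the annotated gene start, and for COR47 and COR15B (560 bases) all of it does. In KIN1, KIN2, RAB18, COR15B, COR47 and ERD10 every DRE core in this window lies after that start. There, 10 of 10 marker genes hold a DRE core and 9 of 10 an ABRE core, ERD10 being the exception, against 25.9% and 34.9% of all genes tested. AT1G52690, RD29B, KIN2 and RAB18 hold 4 ABRE cores each, COR15A and KIN1 3, COR15B 2, and RD29A and COR47 1. Of all genes tested, 2.57% hold at least 3. The counts depend on the window: in the 1000 bases before the gene start, KIN2 and COR15A hold 1 ABRE core, KIN1 2, ERD10 3, RAB18 4, AT1G52690 5, RD29B 6 and RD29A, COR15B and COR47 0. No relation between these counts and the ratios of the marker genes was tested, since the genes were chosen with the ratios known. In the 500 bases before the first coding base RD29A holds 4 DRE cores, and 3 or more were found in 0.892% of all genes tested.

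**Figure D2:**
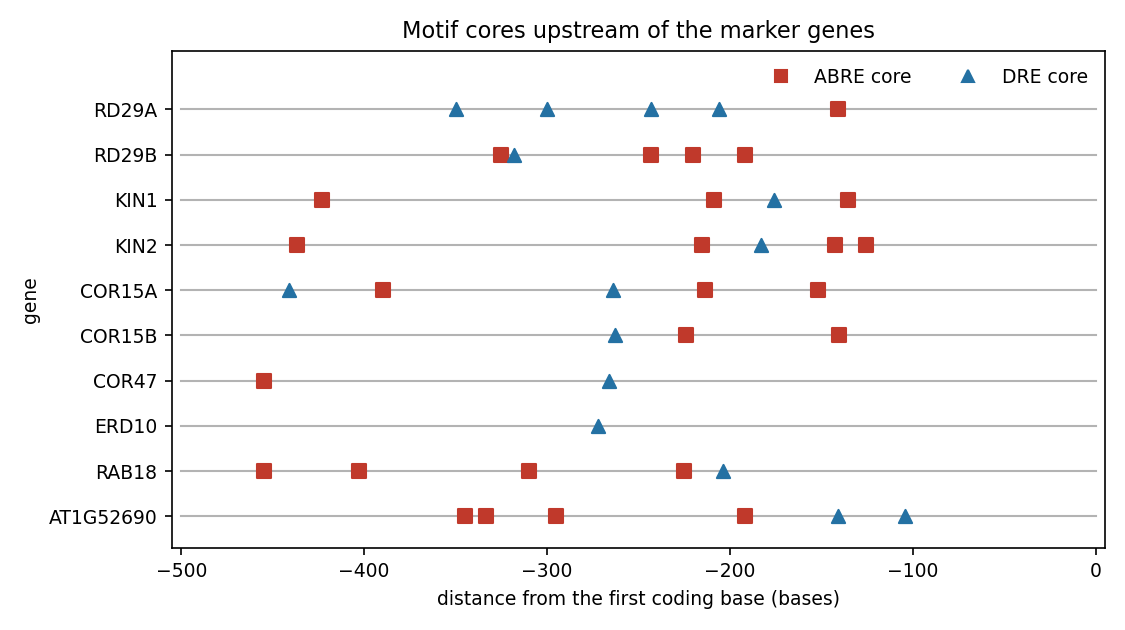
Positions of ABRE cores (red squares) and DRE cores (blue triangles) in the 500 bases before the first coding base of each marker gene; the x axis is the distance from that base and the window was chosen after the data were seen. Every gene carries at least 1 DRE core and ERD10 alone has no ABRE core, while RD29A carries 4 DRE cores and 1 ABRE core and RD29B 1 DRE core and 4 ABRE cores. Part of the window lies after the annotated gene start, which is not drawn, and for COR15B and COR47 all of it does.

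AT1G52690 encodes a member of a LEA protein family, best known from seeds that dry out and from leaves short of water. It stood at 0.65 in bts-1 and 4.19 in Col-0, which corresponds to an FPKM of 0.570 and 17.3. The log2 ratio of -3.54 was the lowest of the marker genes and ranked 6 from the lowest of all genes tested. In Col-0 the gene was the fifth of the 10 marker genes by level and in bts-1 it was the last, close to the lowest value of that library (0.15). Its ratio depends on the pseudocount read as part of the values: it was -4.70 with 0.1 and -2.00 with 5 in place of 1, and for RD29B the same settings gave -3.44 and -1.76. The 6 seed markers, such as the storage protein gene CRA1 and the oleosin gene OLEO1, have no value to give here.

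The dehydrins, LEA proteins with a lysine-rich repeat, differed among themselves. RAB18 (AT5G66400), an abscisic acid-induced dehydrin, stood at 4.79 in bts-1 and 5.83 in Col-0, a log2 ratio of -1.04. ERD10 (AT1G20450), an acidic dehydrin induced early in dehydration, stood at 5.62 in bts-1 and 6.45 in Col-0, with a ratio of -0.83. COR47 (AT1G20440), the acidic dehydrin next to ERD10, stood at 7.48 in bts-1 and 7.71 in Col-0, with a ratio of -0.22. COR47 had a higher level than 96.4% of the genes tested in bts-1 and than 97.1% in Col-0, and it led the marker genes in both libraries. COR47, ERD10, RAB18 and KIN2 were in this order of level in both libraries. With no replicates it cannot be said which neighbours in that order differ by more than their error. RAB18 lay close to the 2-fold limit and was no longer past it with a pseudocount of 5 (-0.94).

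KIN1 and KIN2 encode small alanine-rich proteins induced by cold and abscisic acid. KIN2 (AT5G15970) stood at 3.88 in bts-1 and 5.33 in Col-0, a log2 ratio of -1.45. KIN1 (AT5G15960), directly beside it, stood at 1.42 in bts-1 and 1.93 in Col-0, a ratio of -0.51. KIN2 was thus the more abundant of these neighbours in both libraries, and KIN1 had 0.122 times its FPKM in bts-1 and 0.0716 times in Col-0. The transcripts are 81.6% identical over 739 aligned bases with an identical run of 58 bases, so reads may have been assigned to either gene or left out, and the values of both are uncertain to that degree.

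COR15A and COR15B encode proteins of the chloroplast stroma that stabilise membranes during freezing. COR15A (AT2G42540) stood at 1.71 in bts-1 and 2.95 in Col-0, a log2 ratio of -1.24. COR15B (AT2G42530) stood at 1.10 in bts-1 and 0.77 in Col-0, a ratio of 0.33, the one positive value among the marker genes. Both were low, COR15B being above only 4.13% of the genes tested in bts-1 and 1.82% in Col-0. The FPKM of COR15A was 1.99 times that of COR15B in bts-1 and 9.65 times in Col-0. With a pseudocount of 5 the ratio of COR15A was -0.69 and it no longer counted as 2-fold lower. The pair shares no identical run longer than 31 bases.

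**Figure D3:**
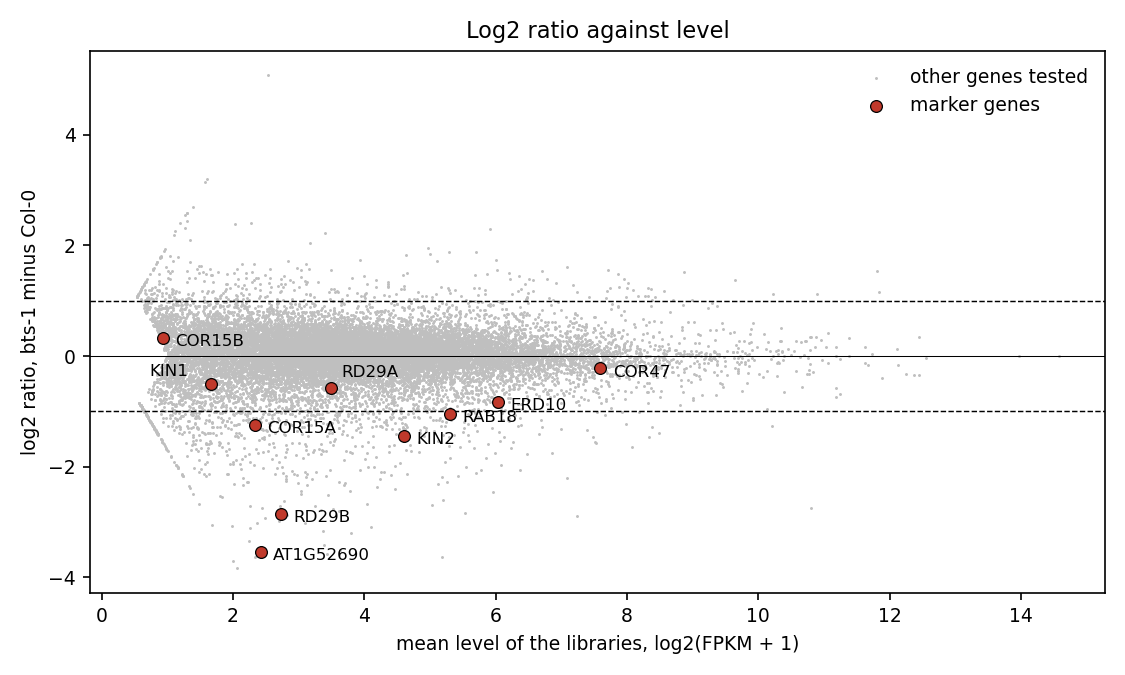
Log2 ratio, bts-1 minus Col-0, against the mean log2(FPKM + 1) of the libraries for 18510 genes (grey points) and the 10 marker genes (red, named); dashed lines mark 2-fold. RD29B and AT1G52690 lie near the lower edge of the cloud at a mean level of 2.73 and 2.42, and COR47, at 7.60, lies close to 0.

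The rest of the pathway was described by 10 lists of 129 genes, of which 95 passed the FPKM minimum. Of these, 17 were at least 2-fold lower in bts-1 and 1 was higher. That is 17.9% lower against 3.63% of all genes tested, and the median log2 ratio of the 95 was -0.20. The lists were chosen with earlier results of these data known. Their share is therefore set beside the background and nothing is read from it. The lower genes were unevenly spread: 6 of 15 in the list of other abscisic acid and drought genes, 4 of 13 among transcription factors of the abscisic acid response, 3 of 12 among other dehydrins and LEA genes, 2 of 10 among cold regulators, 1 of 6 among PP2C phosphatases and 1 of 5 among genes of abscisic acid breakdown. In either direction, 0 of 8 abscisic acid synthesis genes and 0 of 9 receptors were past 2-fold. Of SnRK2 kinases and other cold-responsive genes, 0 of 9 and 0 of 8 were. Over all genes tested 3.63% were lower and 1.92% higher, so few or no such genes fall in lists of this size. Nothing is read from these counts of 0. With a pseudocount of 5 the total was 8 lower and 0 higher, with 4 left in the abscisic acid and drought list, 3 among transcription factors, 1 among cold regulators and 0 in the other lists. The share of all genes at that setting is not given here, so these counts cannot be set against 3.63% and 1.92%. A minimum FPKM of 5 left 1 lower gene among other dehydrins and LEA genes. Whether the lists differ from each other was not tested.

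Genes for making and breaking down abscisic acid gave small ratios for the most part. The 8 synthesis genes had a median of -0.26, with NCED3 (AT3G14440), the rate-limiting dioxygenase, at 2.27 in bts-1 and 2.94 in Col-0, a ratio of -0.67. ABA2 (AT1G52340), the xanthoxin dehydrogenase, had a ratio of -0.43 and ABA1 (AT5G67030), the zeaxanthin epoxidase, of -0.38. Breakdown genes went in both directions. CYP707A3 (AT5G45340), an abscisic acid hydroxylase induced by dehydration, stood at 1.68 in bts-1 and 3.02 in Col-0, a ratio of -1.33. Its relative CYP707A4 (AT3G19270) was at 0.67 and UGT71C5 (AT1G07240), which attaches glucose to the hormone, at 0.74.

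Among genes for the phosphatases, receptors and kinases of the abscisic acid route, 6 of 6 phosphatase genes tested had a negative ratio, with a median of -0.71. Of all genes tested, 45.1% had a negative ratio. HAI1 (AT5G59220) stood at 2.18 in bts-1 and 3.41 in Col-0, a ratio of -1.24 that was no longer past 2-fold with a pseudocount of 5. PP2CA (AT3G11410) had a ratio of -0.81 and ABI1 (AT4G26080) of -0.78. Transcripts of these phosphatases are known to increase with the hormone. The 9 receptor genes had a median of 0.07, with PYL8 (AT5G53160), PYL6 (AT2G40330) and PYR1 (AT4G17870) at 0.60, 0.60 and 0.47. The 9 kinase genes had a median of 0.16, with SNRK2.2 (AT3G50500) and SNRK2.3 (AT5G66880) at 0.61 and 0.44, and SNRK2.8 (AT1G78290) at -0.59. Of these kinase genes, 5 had a positive ratio and 4 a negative one. SNRK2.6 (AT4G33950), also called OST1, was among the negative ones at -0.26 and was added with the ratios in view.

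The transcription factor genes of the abscisic acid response had a median of -0.43. HB7 (AT2G46680), a homeodomain-leucine zipper factor, stood at 3.67 in bts-1 and 5.0 in Col-0, a ratio of -1.33. RD26 (AT4G27410), a NAC factor, stood at 3.71 in bts-1 and 4.94 in Col-0, a ratio of -1.23, and MYB44 (AT5G67300) at 5.65 in bts-1 and 6.77 in Col-0, a ratio of -1.12. NAC019 (AT1G52890), at -1.02, was the other gene past 2-fold. In the ABF group, whose factors bind the ABRE, ABF3 (AT4G34000) had a ratio of -0.83. ABF2 was at -0.43, ABF4 at -0.03 and ABF1 at 0.26. NAC019 and the ABF genes are named after their values were seen. The seed regulators ABI3, ABI4 and ABI5 have no value to give here.

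On the cold side, the zinc finger genes ZAT10 (AT1G27730) and ZAT12 (AT5G59820), which respond to many stresses, were the members past 2-fold. ZAT10 stood at 2.1 in bts-1 and 4.32 in Col-0, and ZAT12 at 0.97 in bts-1 and 2.93 in Col-0. CBF2 (AT4G25470), named after its value was seen, was the one CBF gene with a value, at 0.63 in bts-1 and 0.97 in Col-0, under the FPKM minimum. RAP2.1 (AT1G46768), a factor downstream of the CBFs, had a ratio of 0.50. The other cold-responsive genes had a median of 0.05, with COR413IM1 (AT1G29395), RCI2A (AT3G05880) and COR413IM2 (AT1G29390), all membrane proteins, at 0.55, 0.29 and 0.10.

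The list of other abscisic acid and drought genes had a median of -0.58 and held the lowest ratio of the pathway lists. Of its 15 genes, 12 had a negative ratio, as did 45.1% of all genes tested. The other 3 had a positive ratio, the highest being 0.82 for AFP2 (AT1G13740). AFP2 was added here with the ratios in view. LTP3 (AT5G59320), a lipid transfer protein gene, stood at 1.07 in bts-1 and 3.83 in Col-0, a ratio of -2.76. Its near neighbour LTP4 (AT5G59310) stood at 1.13 in bts-1 and 3.08 in Col-0, a ratio of -1.95, and reads may be shared between these similar genes. RD20 (AT2G33380), a caleosin, stood at 3.78 in bts-1 and 5.48 in Col-0, a ratio of -1.70. P5CS1 (AT2G39800), an enzyme of proline synthesis, AFP1 (AT1G69260), a repressor of ABI5, and GOLS2 (AT1G56600), a galactinol synthase, had ratios of -1.18, -1.16 and -1.15 and are named after their values were seen. Among other dehydrin and LEA genes AT3G17520 stood at 0.51 in bts-1 and 2.68 in Col-0. The dehydrin HIRD11 (AT1G54410), at 8.18 in bts-1 and 8.40 in Col-0, had a ratio of -0.21. DI21 (AT4G15910), at 4.41 in bts-1 and 4.69 in Col-0, had a ratio of -0.29. Of the 12 genes tested in that list, 8 had a negative ratio and 3 a positive one, beside the same 45.1% of all genes tested. LEA18 (AT2G35300), the 1 higher gene of the pathway lists, stood at 2.33 in bts-1 and 1.27 in Col-0, a ratio of 1.06. The dehydrin XERO2 (AT3G50970) had a ratio of 0.58. LEA18 and XERO2 were likewise added with the ratios in view.

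**Figure D4:**
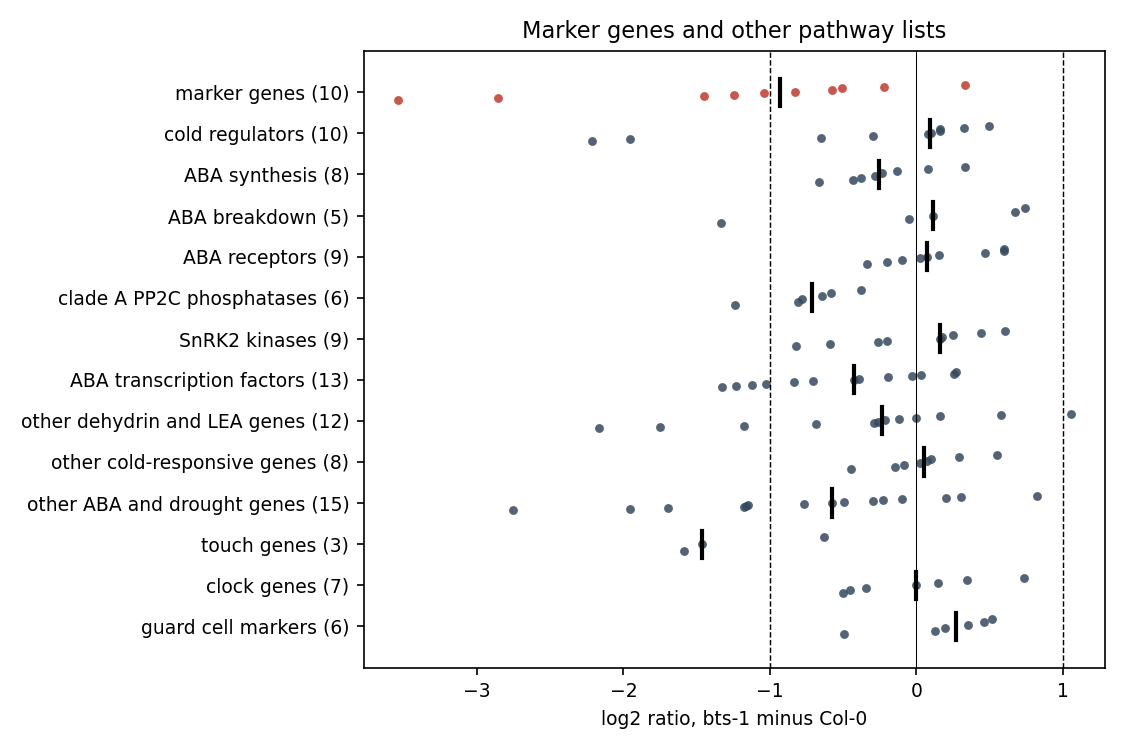
Log2 ratios, bts-1 minus Col-0, of every gene past the FPKM minimum in the marker genes (red, top row) and in the other lists (dark), with the number of genes in brackets, the median of each list as a black bar and 2-fold as dashed lines. Phosphatase genes are all left of 0 (-1.24 to -0.38), whereas the receptors and kinases lie on both sides of it.

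Other gene groups that can move with these markers were read in the same libraries. The touch genes TCH2 (AT5G37770) and TCH4 (AT5G57560), which respond within minutes to handling, stood at 5.10 and 7.60 in bts-1 and at 6.68 and 9.06 in Col-0, with ratios of -1.59 and -1.46, and TCH3 (AT2G41100) had a ratio of -0.63. The clock genes, which set the time of day at which cold-responsive genes are expressed, had 0 of 7 past 2-fold and a median of -0.00396, with LHY (AT1G01060) at -0.50, CCA1 (AT2G46830) at -0.46 and PRR7 (AT5G02810) at 0.74. Of all genes tested, 3.63% were at least 2-fold lower and 1.92% higher, and 10135 of 18510 had a positive ratio. Guard cells, where RAB18 is strongly expressed, were marked by 6 genes, of which 0 were past 2-fold and 5 had a positive ratio. Their summed FPKM was 173 in bts-1 and 140 in Col-0, with GC1 (AT1G22690) at 0.51, FAMA (AT3G24140) at 0.35 and MYB60 (AT1G08810) at -0.50. Of 5 root markers, 2 had a value, PYK10 (AT3G09260) and CASP1 (AT2G36100), with ratios of 0.13 and 0.41. PYK10 stood high, at 10.19 in bts-1 and 10.06 in Col-0, but lies on chromosome 3, where levels are uncertain. CASP1, named after its value was seen, stood at 1.33 in bts-1 and 0.91 in Col-0. Whether the samples held root tissue was not tested. The part of handling, time of day or cell composition in the ratios of the marker genes was not tested.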

How the data were processed

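RNA of seedling shoots was sequenced in 1 library of bts-1 and 1 of Col-0 with a directional kit (labels' protocols). Per the submitters' processing notes, the build was TAIR10 and the tools included HTSeq 0.9.1, TopHat2 2.1.0, Bowtie, cutadapt 1.12 and CASAVA 1.8.2, with no order or settings given. The deposited values are named normalized FPKM and were taken to be on a log2 scale, which no source states: read as log2(FPKM + 1) and weighted by exon length they sum to 1564485 in bts-1 and 1586429 in Col-0, and read as natural logs to 25906913 in bts-1 and 26808504 in Col-0, much farther from the sum that FPKM implies. Sorted, the columns match within 0.001 at 99.1% of ranks, as after quantile normalization, which no label records; ratios are therefore relative to the other genes. No counts are given, so depth is unknown.

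Of 18617 rows, 2 without annotation were left out. Ratios, list counts and medians were computed with Python 3.11.15 and pandas 2.3.3, transcripts of neighbours aligned with Biopython 1.88, and scripts checked on simulated data. Marker genes and lists were chosen with earlier results of these data known. Genes named by rule are the marker genes, BTS and, per list, up to 3 with the largest absolute ratio among those whose FPKM reached 5 in one library or both. Other genes given with their own values are marked where they appear as named, added or searched for after the data were seen. Planned protein features were not computed. TAIR10.1 served for gene models and promoters by gene identifier; gene starts are those of RefSeq, and promoter coordinates are of TAIR10.1. Alternatives were pseudocounts of 0.1 and 5, other minima and folds, centring, nuclear scaling, 1 gene per neighbouring pair and other promoter windows.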

Additional observations from a re-analysis of the deposited data

How the results depend on the processing

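All 10 marker gene ratios kept their sign under both pseudocounts, centring on the nuclear median and scaling of nuclear genes, and their side of 2-fold as well, except that RAB18 and COR15A were no longer past it with a pseudocount of 5. The count of marker genes at least 2-fold lower was then 3 in place of 5, and it was 2 with a 3-fold limit. The median of the marker genes went past 2-fold with the mean in its place (-1.19) and with 1 gene per neighbouring pair (-1.14), a setting added after the data were seen. In the pathway lists, a pseudocount of 5 left 8 genes lower and 0 higher, and a minimum FPKM of 5 left 0 higher. For a pseudocount or a minimum FPKM of 5 the share of all genes is not given here, so these counts have no background beside them. DRE cores were found in 9 marker genes within 1000 bases of the gene start and in 10 within 500 bases of the coding start, against 5 in the 300-base window. ABRE cores were found in 7 and 9, against 6. The window before the coding start lies partly after the annotated gene start. Low levels limit COR15B, KIN1 and the bts-1 values of RD29B and AT1G52690. No paired analysis was possible because each genotype has 1 library.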

Other observations

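LEA proteins form a large family, only part of which is on the lists above. A search of the deposited descriptions for LEA proteins and dehydrins, made after the data were seen, found 42 genes past the FPKM minimum, 4 of them marker genes. Of the other 38, 30 were on no list, and of these 4 were at least 2-fold lower in bts-1 and 0 were higher, against 3.63% and 1.92% of all genes tested, with a median log2 ratio of -0.09. The LEA 3-like gene AT1G02820 stood at 4.84 in bts-1 and 6.50 in Col-0. AT2G27080, a hydroxyproline-rich glycoprotein of this family, stood at 3.57 in bts-1 and 5.19 in Col-0. AT3G02480 stood at 0.75 in bts-1 and 2.04 in Col-0, and AT4G23610 at 0.15 in bts-1, where that library bottoms out, and 1.24 in Col-0.

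ABRE cores were also counted before the coding start of genes on none of the lists, after the data were seen. The share at least 2-fold lower in bts-1 was 2.65% of 11556 genes with 0 cores, 4.39% of 4401 with 1, 5.48% of 1315 with 2 and 5.99% of 434 with 3 or more. The share at least 2-fold higher was 1.16%, 1.70%, 2.05% and 0.922% in the same groups, and the median log2 ratio lay between -0.01 and 0.05 in all of them. Leaving out genes that hold the palindrome CACGTG, the G-box bound by many other factors, the shares lower were 2.65%, 4.43%, 7.29% and 5.33%, the last over 150 genes. For DRE cores, listed genes included, the share lower was 3.50% with 0 cores, 3.68% with 1, 2.59% with 2 and 1.26% of 159 genes with 3 or more. Gene level and promoter composition were not matched between these groups.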
